A study of Mus musculus with 68 samples.

Results

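The genes described here are 38 markers of white blood cells, measured in whole mouse uterus after treatment with oestradiol (E2) or insulin-like growth factor 1 (IGF1). A member was measured by a probe set annotated to its symbol alone, and each had 1 such probe set. This gave 37 of the 38 genes, out of 30142 genes tested. Cd74, the invariant chain of major histocompatibility complex (MHC) class II, was not measured, because its probe set is also annotated to Mir5107. The 37 genes fell into 6 classes by textbook role: 15 macrophage genes, 4 antigen-presenting genes, 10 genes of T and natural killer (NK) cells, 2 B cell genes, 5 genes of granulocytes and mast cells, and the pan-leukocyte gene Ptprc.

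The study asked what oestrogen receptor α, the product of Esr1, does in the response of the uterus to IGF1. All mice were ovariectomized, and total RNA from the uterus was hybridised to 68 arrays in 25 groups, 18 of 3 arrays and 7 of 2. The authors state that groups of 2 lost an array that principal component analysis marked as an outlier, so spread in those groups may be understated. The labels do not say that replicates are separate animals, and a p-value here covers spread among these samples only.

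The mice came in 5 sets, and each set received the same 5 treatments. They were C57Bl6 wild types from a commercial supplier (14 arrays), the Esr1-null line Ex3aERKO (11 arrays) with wild-type littermates (14 arrays), and ERaUtcKO mice, genotype Esr1f/f;PgrCre+ (15 arrays), with wild-type littermates (14 arrays). In ERaUtcKO mice the recombinase is driven from the progesterone receptor gene, so Esr1 is removed in cells that have used that gene. Mice received saline vehicle, 250 ng E2, or IGF1 as a 50 ug injection or from an implanted pump, and the labels do not say which IGF1 mice had which route. Tissue was taken at 2 h or 24 h, but after vehicle at 24 h alone, so a 2 h comparison with vehicle also spans time since treatment. Under vehicle, Esr1 read 10.29 and 10.08 in Ex3aERKO against 12.43 and 12.73 in littermates, and 11.09, 11.10 and 10.86 in ERaUtcKO against 12.17, 12.25 and 12.24. It was lower by 2.39 and 1.21 on the log2 scale, as the labels state for the lines.

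White blood cells are a normal part of the uterus, where macrophages, dendritic cells, mast cells, T cells and uterine NK cells lie among stroma and muscle. Their numbers and state change over the oestrous cycle and in pregnancy, under ovarian hormones and the chemokines that the tissue makes. E2 is known to bring water, granulocytes and cell division to the uterus of an ovariectomized rodent, and IGF1 is one of the growth factors through which it acts there. In whole tissue RNA, fewer cells of a type and less RNA per cell cannot be told apart. The same holds for a larger share of RNA from other cells.

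Values are log2 intensities as the authors deposited them, and a gene is called higher or lower at an adjusted p under 0.05 (limma, Benjamini-Hochberg over 30142 genes). Levels of 1 gene were not comparable between the sets: under vehicle H2-Ab1 averaged 14.89 in C57, 10.53 in Ex3aERKO littermates and 10.64 in ERaUtcKO littermates, while Tyrobp averaged 9.01, 12.68 and 13.14. Every comparison was therefore made within sets. The wild-type responses were fitted over 42 arrays of 3 sets with the set as a term, and E2 and IGF1 were compared with the same vehicle arrays. Of the 37 genes, 18 exceeded the 95th percentile of the antigenomic control probe sets on all 68 arrays and 18 on some arrays. Epx, the eosinophil peroxidase, exceeded it on none. Cd4 exceeded it on 13 arrays, Gzmb on 22, Siglecf on 24, Prf1 on 28 and Cd8a on 31, so differences of these genes are close to background.

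Among the C57 arrays 3 stood apart in several genes of lymphocytes and of MHC class II. They were vehicle replicate 3, IGF1 2 h replicate 2 and IGF1 24 h replicate 1. On them Ptprc read 10.21 to 10.87 against 8.52 to 9.83 on the other 11 C57 arrays, and Cd4 read 8.27 to 8.57 against 6.39 to 7.15. The B cell gene Ms4a1 read 6.84 to 8.02 against 5.32 to 6.36, and H2-Eb1 read 12 to 12.65 against 9.26 to 11.54. None of these ranges overlapped, but arrays and genes were picked with their values known, so this is a description only. Not every T and NK gene followed. Gzmb, close to background, lay between the other arrays of its group on vehicle replicate 3 and on IGF1 24 h replicate 1. Glycam1 and Madcam1, which mark lymph node vessels, did overlap, at 6.09 to 6.92 against 5.51 to 6.74 and 5.63 to 5.63 against 5.41 to 5.81. The 95th percentile of the antigenomic control probe sets ran from 6.12 to 6.89 on C57 arrays. Madcam1 lay below it throughout and Glycam1 lay near it, so their overlap says little. Whether lymph node tissue was present was not tested. Because these 3 arrays stood apart, the results were also computed without them, a choice made after their values were seen.

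**Figure D1:**
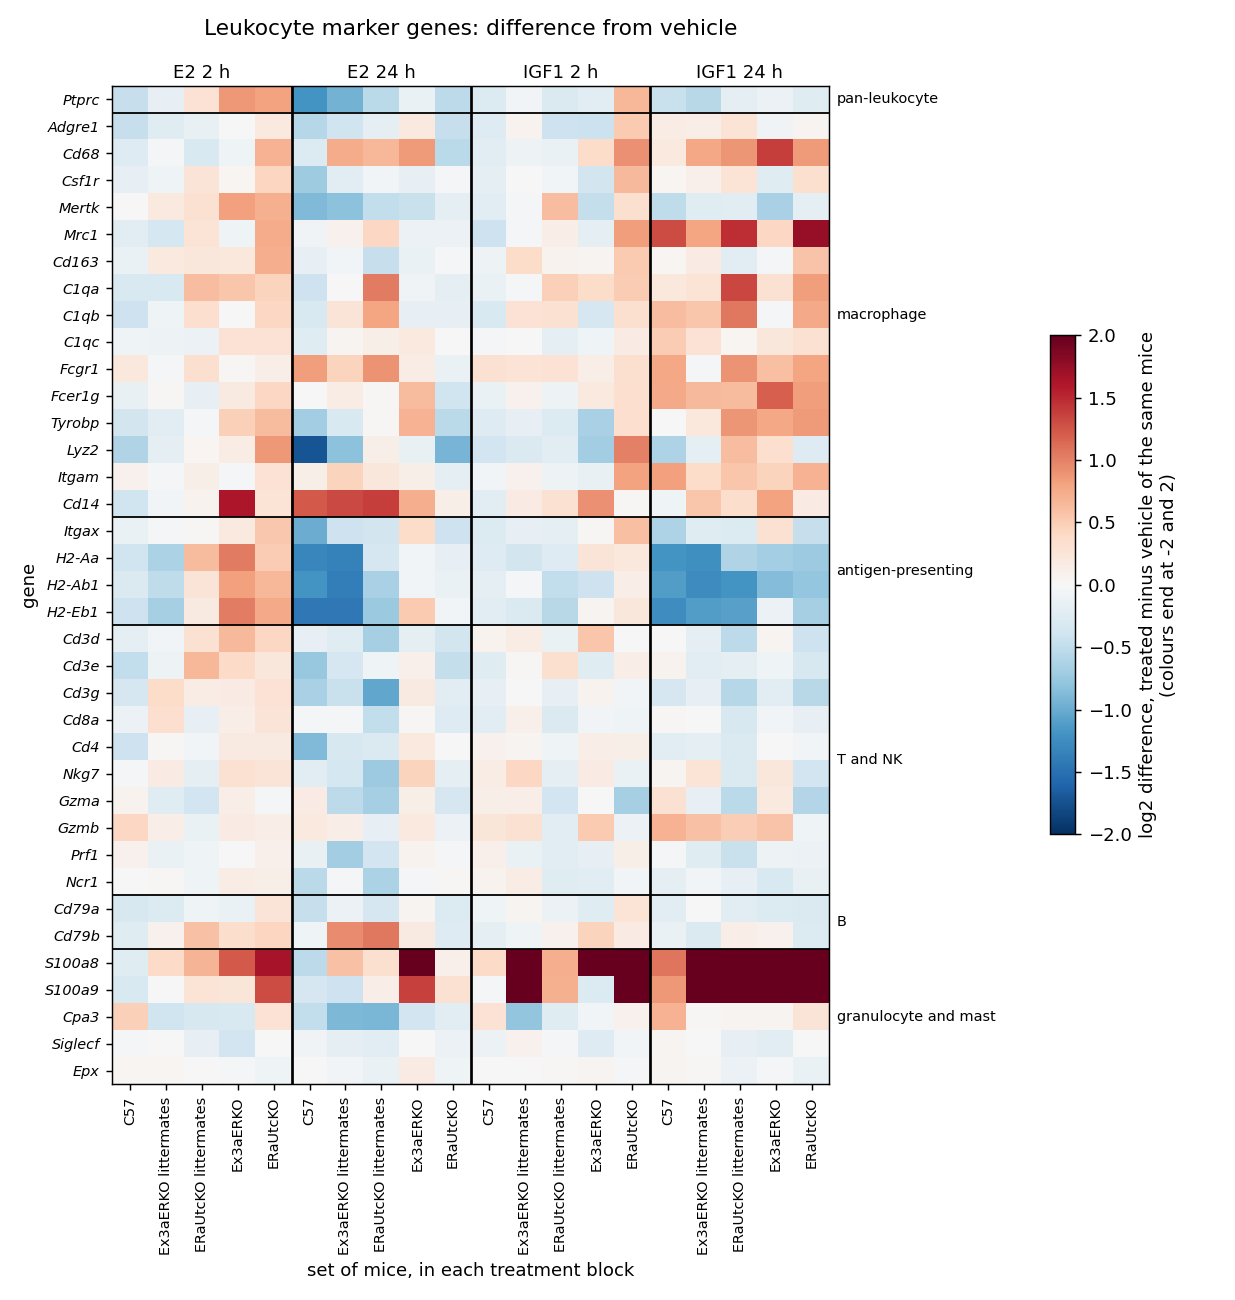
Log2 difference of each of the 37 genes (rows, by class) from the vehicle arrays of the same mice, in 5 sets of mice (columns) within 4 treatment blocks. Colours run from -2 (blue) to 2 (red) and end there. The MHC class II genes are blue at 24 h of either hormone in all 3 wild-type sets, and Cd14 is red at 24 h of E2.

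At 2 h of E2, none of the 37 genes was called in wild types, although 40.0% of all genes tested were. Differences ran from -0.29 to 0.19 with a median of -0.05, the same as the median of all genes, and 3 genes had an unadjusted p under 0.05 (limma). With IGF1 at 2 h, 2 of the 37 genes rose and none fell, against 35.9% of all genes called, 16.9% higher and 19.0% lower. These were S100a8, a calgranulin of neutrophils and monocytes, by 1.96 ± 0.69 (SE, adjusted p = 0.0217), and Fcgr1, the high-affinity IgG receptor CD64, by 0.35 ± 0.13 (adjusted p = 0.0342). The calls at 2 h rested on few arrays, and neither was left without Ex3aERKO littermate IGF1 2 h replicate 2 or without ERaUtcKO littermate vehicle replicate 2. Fcgr1 was lost without any 1 of 8 arrays: these 2, C57 vehicle replicate 1 or 2, C57 IGF1 2 h replicate 2, Ex3aERKO littermate IGF1 2 h replicate 1 or 3, and ERaUtcKO littermate vehicle replicate 1. The direct comparison of E2 with IGF1 at 2 h called S100a8 alone, lower with E2 by 1.78 (adjusted p = 0.0499), among 22.0% of all genes, 9.6% higher and 12.4% lower. That call was absent after median centring, after quantile normalization and without any 1 of 11 single arrays.

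At 24 h of E2, 20 of the 37 genes fell and 3 rose, while after median centring 13 fell and 4 rose. Over all genes 56.2% were called without centring, 24.5% higher and 31.7% lower. These shares do not apply to the count after centring, and the class counts below are without centring too. In ERaUtcKO littermates the median of the tested genes per array was 6.80, 6.80 and 6.71 under vehicle. At 24 h of E2 it was 6.62, 6.63 and 6.63. The part of this shift in the smaller falls was not tested. The median difference of the 37 genes was -0.32, beside -0.07 for all genes. All 4 antigen-presenting genes fell, as did 8 of 10 T and NK genes and Ptprc, while macrophage genes moved both ways, with 4 lower and 2 higher of 15. Of the 20 genes that fell, 18 went the same way in all 3 wild-type sets, which were also the sets that gave the calls. Differences near 0 count here. Cd8a, for example, differed by -0.02 in C57 mice, -0.03 in Ex3aERKO littermates and -0.50 in ERaUtcKO littermates. Without the 3 C57 arrays 22 genes were called, of which 21 were among these 23, while Cd3d and Cd8a were lost.

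At 24 h of IGF1, 10 of the 37 genes rose and 7 fell, against 40.9% of all genes called, 19.3% higher and 21.6% lower. The median was -0.02, beside -0.06 for all genes. The 4 antigen-presenting genes fell here too, while 7 of 15 macrophage genes rose and 1 fell. All 17 calls remained without the 3 C57 arrays. E2 and IGF1 set directly against each other at 24 h differed in 17 of the 37 genes, 15 lower and 2 higher with E2, against 28.1% of all genes, 15.3% higher and 12.9% lower. From 2 h to 24 h of E2, 15 of the 37 genes fell and 4 rose, against 51.2% of all genes, 27.1% higher and 24.1% lower. From 2 h to 24 h of IGF1, 8 rose and 4 fell, against 35.3% of all genes, 20.1% higher and 15.2% lower.

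Fewer genes were called at 24 h without the ERaUtcKO littermates, an alternative with fewer arrays that was chosen after seeing the data. Of the 37 genes 14 of the 23 calls at 24 h of E2 remained and 9 of the 17 at 24 h of IGF1, while calls over all genes went from 16942 to 13022 with E2 and from 12329 to 7221 with IGF1. For E2 the calls of Cd3d, Cd4, Cd8a, Nkg7, Gzma, Cd79a, Cd79b, Cpa3 and Siglecf were lost. For IGF1 those of Ptprc, Cd68, C1qa, C1qb, Fcgr1, Prf1, S100a8 and S100a9 were lost.

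**Figure D2:**
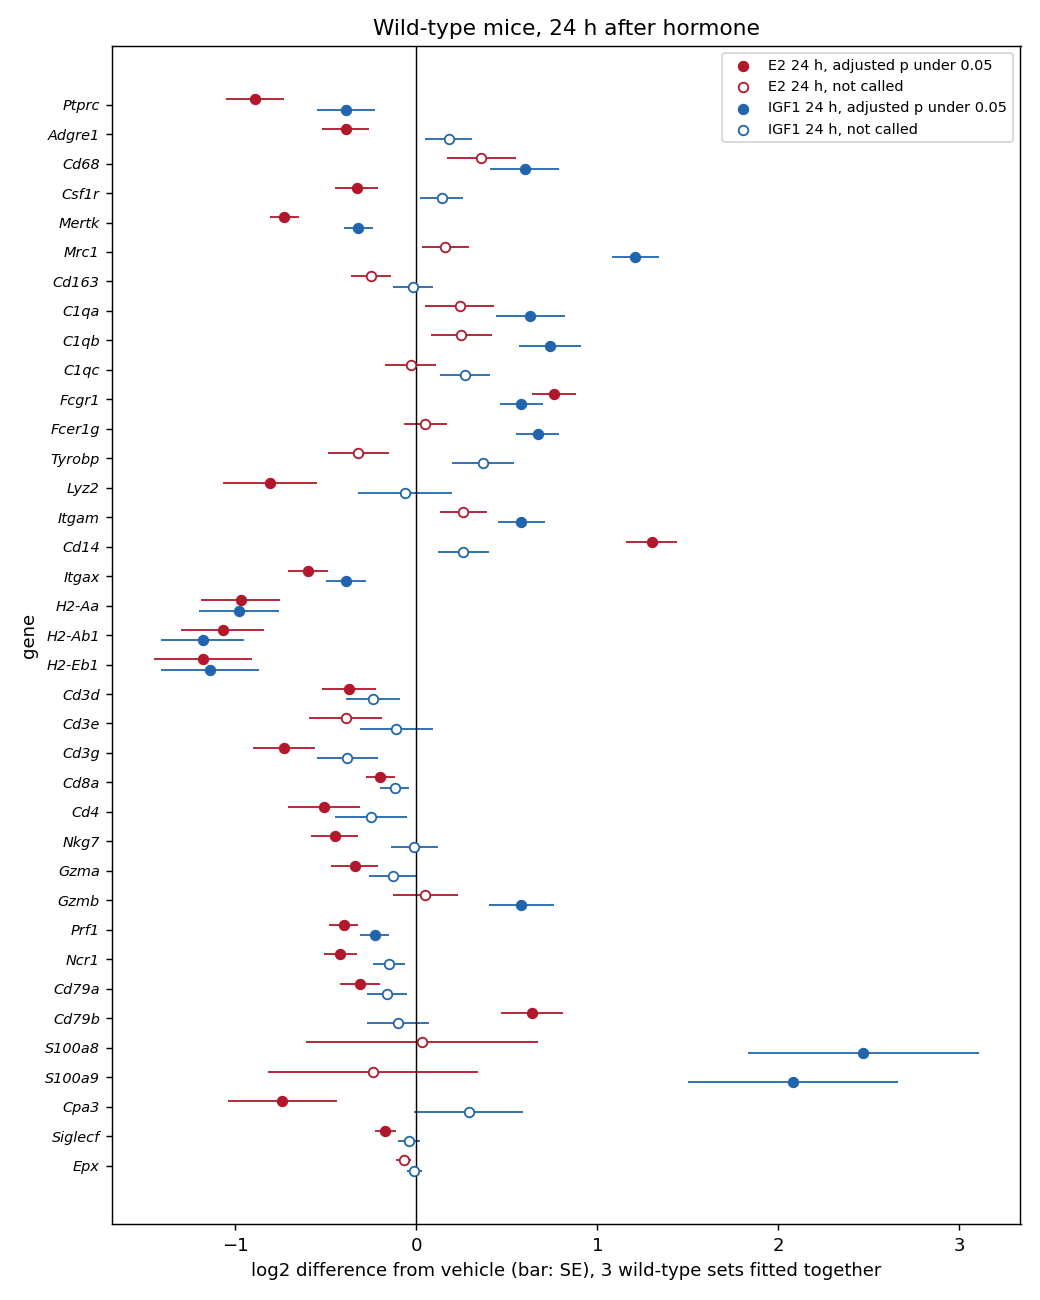
Log2 difference from vehicle at 24 h of E2 (red) and IGF1 (blue) in wild types, 1 row per gene, from the fit over 42 arrays. Bars are standard errors and filled points have an adjusted p under 0.05. H2-Aa, H2-Ab1 and H2-Eb1 lie between -0.97 and -1.18 with either hormone, while Mrc1, S100a8 and S100a9 lie apart between the hormones.

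The MHC class II genes H2-Aa, H2-Ab1 and H2-Eb1, which encode the chains that present peptides to CD4 T cells, fell by about the same amount after either hormone. They are neighbours on chromosome 17, with no protein-coding gene between them in RefSeq GRCm38.p6. The 250 bases before the start of H2-Aa (chr17:34287824-34288073, minus strand) and of H2-Eb1 (chr17:34305617-34305866, plus strand) are shown because these genes moved together. Both are written 5′ to 3′ toward the gene from RefSeq, GRCm38.p6, with the letters CTGATTGG in capitals. This string is the core of the Y box of class II promoters.
H2-Aa: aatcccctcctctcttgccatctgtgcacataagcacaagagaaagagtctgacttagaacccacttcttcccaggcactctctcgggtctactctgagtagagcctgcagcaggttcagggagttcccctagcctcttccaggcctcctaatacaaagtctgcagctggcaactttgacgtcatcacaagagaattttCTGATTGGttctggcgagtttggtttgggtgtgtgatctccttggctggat
H2-Eb1: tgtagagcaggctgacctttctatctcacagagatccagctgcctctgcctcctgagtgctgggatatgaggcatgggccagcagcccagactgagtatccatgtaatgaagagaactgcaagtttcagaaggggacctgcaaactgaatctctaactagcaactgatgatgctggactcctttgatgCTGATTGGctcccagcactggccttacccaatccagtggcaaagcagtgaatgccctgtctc
The string begins 51 bases before the start of H2-Aa and 62 bases before that of H2-Eb1. It was searched on both strands and stands in 3.83% of 32851 promoter windows of this length. Of the 29 members with a window, it was found in these 2 alone. H2-Ab1 had no window and was not searched. The 10 strings searched were chosen with the expression values known, and a match is a description of the letters, not of binding.

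In Ex3aERKO littermates H2-Eb1 read 9.64 and 9.92 under vehicle, 8.44, 8.40 and 8.21 at 24 h of E2, and 8.91, 8.95 and 8.11 at 24 h of IGF1. In ERaUtcKO littermates it read 9.87, 9.97 and 9.95 under vehicle, 9.18, 9.29 and 9.11 with E2, and 8.68, 9.09 and 8.74 with IGF1. In C57 mice it read 11.26, 10.96 and 12.65 under vehicle, 9.61, 10.72 and 10.25 with E2, and 12.35, 9.52 and 9.26 with IGF1. All E2 arrays lay below all vehicle arrays of their own set in each of the 3 sets. The IGF1 arrays did so in both littermate sets, while in C57 mice the IGF1 array high in lymphocyte genes lay among the vehicle values. H2-Eb1 fell by 1.18 ± 0.27 with E2 (SE, 2.27-fold, adjusted p = 0.000238) and by 1.14 ± 0.27 with IGF1 (2.2-fold, adjusted p = 0.000686). Without the 3 C57 arrays these differences were -1.01 ± 0.17 (adjusted p = 4.99e-06) and -1.24 ± 0.18 (adjusted p = 5.66e-07).

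H2-Ab1 read 10.32 and 10.74 under vehicle in Ex3aERKO littermates, 9.16, 9.25 and 9.01 with E2, and 9.32, 9.68 and 8.80 with IGF1. It fell by 1.07 ± 0.23 with E2 (2.1-fold, adjusted p = 0.000114) and by 1.18 ± 0.23 with IGF1 (2.26-fold, adjusted p = 5.86e-05). H2-Aa fell by 0.97 ± 0.22 (1.95-fold, adjusted p = 0.000276) and by 0.98 ± 0.22 (1.97-fold, adjusted p = 0.000439). The size of the fall with E2 varied between sets: H2-Aa differed by -1.30 in C57 mice, -1.35 in Ex3aERKO littermates and -0.34 in ERaUtcKO littermates. In the last of these, E2 and vehicle arrays overlapped. Set directly against each other at 24 h, E2 and IGF1 differed by 0.01 for H2-Aa (95% interval -0.42 to 0.45), 0.11 for H2-Ab1 (-0.34 to 0.56) and -0.04 for H2-Eb1 (-0.57 to 0.48), with adjusted p from 0.787 to 0.981. Intervals of this width do not show that the hormones acted alike. At 2 h none of the 3 genes was called with either hormone, and each was lower at 24 h than at 2 h: by 0.91, 0.90 and 0.86 for H2-Ab1, H2-Eb1 and H2-Aa with E2, and by 1.00, 0.82 and 0.74 with IGF1.

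Itgax, the integrin CD11c of dendritic cells and some macrophages, also fell, by 0.60 ± 0.11 with E2 (adjusted p = 1.78e-05) and by 0.39 ± 0.11 with IGF1 (adjusted p = 0.00535). Of 18 further genes of antigen presentation and dendritic cells, 12 fell with E2 and 10 with IGF1, and none rose, beside 31.7% and 21.6% of all genes lower. Clec9a, a receptor of cross-presenting dendritic cells, showed the largest fall with either hormone, by 0.82 with E2 and 0.60 with IGF1. Ccr7, which guides dendritic cells to lymph nodes, fell by 0.53 with E2, and H2-Ob, a modulator of peptide loading, by 0.44 with IGF1. Ciita, the master activator of class II transcription, was singled out from this list after its values were seen. It fell by 0.51 ± 0.09 with E2 (adjusted p = 1.63e-05) and by 0.29 ± 0.09 with IGF1 (adjusted p = 0.0129).

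**Figure D3:**
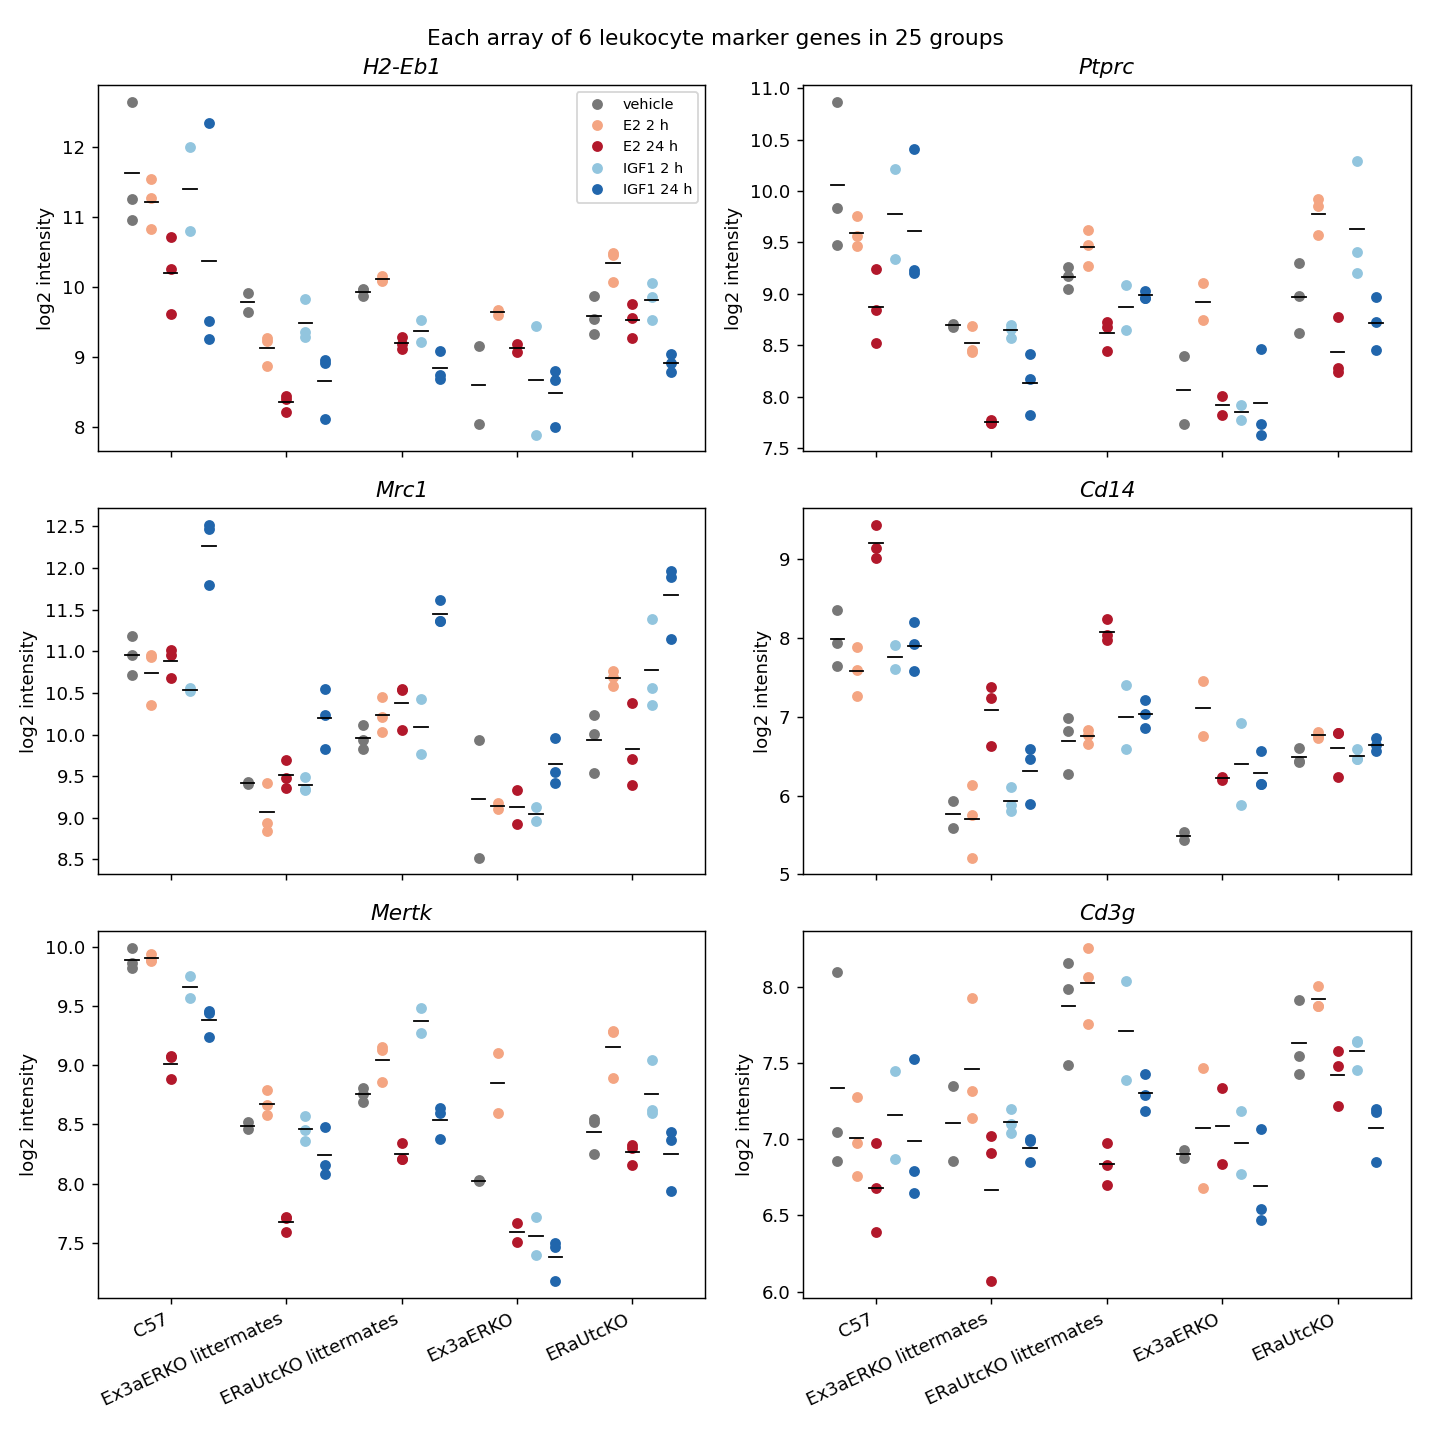
Log2 intensity of H2-Eb1, Ptprc, Mrc1, Cd14, Mertk and Cd3g on every array, by set of mice (x axis) and treatment (colour), with a bar at each group mean. H2-Eb1, Ptprc and Mertk lie below vehicle at 24 h of E2 in all 3 wild-type sets, Cd14 lies above it, and Mrc1 lies above vehicle at 24 h of IGF1.

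Ptprc encodes CD45, a phosphatase on the surface of nearly all white blood cells. It read 8.68 and 8.71 under vehicle in Ex3aERKO littermates, 7.74, 7.77 and 7.74 at 24 h of E2, and 8.17, 8.41 and 7.82 at 24 h of IGF1. In ERaUtcKO littermates it read 9.17, 9.26 and 9.05 under vehicle, 8.73, 8.68 and 8.44 with E2, and 8.96, 8.96 and 9.03 with IGF1. In C57 mice it read 9.83, 9.47 and 10.87 under vehicle, 8.52, 9.24 and 8.84 with E2, and 10.41, 9.23 and 9.20 with IGF1. The E2 arrays lay below vehicle without overlap in all 3 sets. Ptprc fell by 0.89 ± 0.16 with E2 (1.85-fold, adjusted p = 9.12e-06) and by 0.39 ± 0.16 with IGF1 (adjusted p = 0.0485). The IGF1 call was lost without any 1 of 12 single arrays. The E2 level lay below the IGF1 level by 0.50 ± 0.16 (adjusted p = 0.0123).

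Genes of other tissue compartments were called at 24 h too. Their counts stand beside 24.5% of all genes higher and 31.7% lower with E2, and 19.3% and 21.6% with IGF1. Of 9 epithelial genes, 7 rose and 1 fell at 24 h of E2, with a median difference of 1.93, and 4 rose and 1 fell at 24 h of IGF1, with a median of 0.26. Elf3 and Krt8, of the epithelium, rose by 3.90 and 3.34 with E2. The mean epithelial level per array, relative to the vehicle mean of the set, ran from 1.40 to 2.12 at 24 h of E2, from -0.27 to 0.57 at 24 h of IGF1 and from -0.26 to 0.23 under vehicle. Smooth muscle genes moved with both hormones: 5 of 8 rose and 2 fell with E2, and 6 of 8 rose with IGF1. Of 8 endothelial genes 5 fell with E2, and of 4 genes of lymph node stroma 3 fell, Cxcl13 by 0.96 and Ccl19 by 0.61. Of 9 genes of uterine stroma 4 rose and 4 fell with E2, and 5 rose and 1 fell with IGF1, and their mean level ran from 0.17 to 0.85, from 0.30 to 0.89 and from -0.12 to 0.23 under E2, IGF1 and vehicle. Of 6 fat genes 3 fell with E2 and 2 with IGF1, and their mean level ran from -1.58 to -0.31, from -1.41 to 0.43 and from -1.02 to 1.43 in the same order. The mean level of the 4 antigen-presenting genes per array ran from -1.68 to -0.38 at 24 h of E2, from -1.82 to 0.23 at 24 h of IGF1 and from -0.50 to 0.62 under vehicle. The part of these compartments in the leukocyte results was not tested.

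The macrophage genes did not move as a block. Their median difference at 24 h of E2 was 0.05, with 2 genes higher, 4 lower and 9 not called. Cd14 and Mertk had the smallest adjusted p among them, with opposite signs, and each kept its sign in all 3 wild-type sets.

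Mertk, a receptor by which macrophages take up dying cells, read 9.99, 9.82 and 9.86 under vehicle in C57 mice, 9.08, 9.07 and 8.88 at 24 h of E2, and 9.44, 9.24 and 9.46 at 24 h of IGF1. In Ex3aERKO littermates it read 8.52 and 8.46 under vehicle, 7.72, 7.59 and 7.71 with E2, and 8.16, 8.48 and 8.08 with IGF1. In ERaUtcKO littermates it read 8.81, 8.69 and 8.76 under vehicle, 8.34, 8.21 and 8.21 with E2, and 8.60, 8.38 and 8.64 with IGF1. The E2 arrays were the lowest of these in each set. The IGF1 arrays lay between E2 and vehicle, except that 1 of 3 overlapped vehicle in Ex3aERKO littermates. Mertk fell by 0.73 ± 0.08 with E2 (1.66-fold, adjusted p = 3.04e-10) and by 0.32 ± 0.08 with IGF1 (adjusted p = 0.00124), and the hormones differed by 0.41 ± 0.08 (adjusted p = 5.66e-05). The other macrophage genes that fell with E2 were Lyz2 (lysozyme) by 0.81 ± 0.26, Adgre1 (F4/80) by 0.39 ± 0.13 and Csf1r, the receptor of macrophage colony-stimulating factor, by 0.33 ± 0.12. Lyz2 did not fall in every set: its differences were -1.73 in C57 mice, -0.82 in Ex3aERKO littermates and 0.12 in ERaUtcKO littermates. The Csf1r call (adjusted p = 0.0248) was lost without C57 vehicle replicate 3 or without C57 E2 24 h replicate 1 or 3.

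Cd14, the co-receptor for bacterial lipopolysaccharide, read 7.65, 7.94 and 8.36 under vehicle in C57 mice and 9.02, 9.44 and 9.15 at 24 h of E2. In Ex3aERKO littermates it read 5.93 and 5.59 under vehicle and 7.38, 7.24 and 6.63 with E2, and in ERaUtcKO littermates 6.82, 6.27 and 6.98 and then 7.97, 8.24 and 8.04. No E2 array overlapped the vehicle arrays of its set. Cd14 rose by 1.30 ± 0.14 (2.46-fold, adjusted p = 2.68e-10). With IGF1 it differed by 0.26 ± 0.14 (adjusted p = 0.136), and the direct comparison put it 1.04 ± 0.14 higher with E2 (adjusted p = 9.85e-08). Cd14 is not particular to white blood cells in all tissues, and whole tissue RNA does not say which cells carried it. Fcgr1 was the other macrophage gene that rose with E2, by 0.76 ± 0.12 (adjusted p = 1.74e-06), and it also rose with IGF1, by 0.58 ± 0.12 (adjusted p = 0.000219).

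Mrc1 rose furthest among the macrophage genes after IGF1. It encodes the mannose receptor CD206 of tissue macrophages. In C57 mice it read 11.18, 10.72 and 10.95 under vehicle, 10.95, 10.68 and 11.01 at 24 h of E2, and 11.80, 12.47 and 12.52 at 24 h of IGF1. In Ex3aERKO littermates it read 9.40 and 9.43 under vehicle, 9.36, 9.48 and 9.69 with E2, and 10.24, 10.55 and 9.82 with IGF1. In ERaUtcKO littermates it read 10.12, 9.83 and 9.93 under vehicle, 10.55, 10.54 and 10.05 with E2, and 11.62, 11.36 and 11.36 with IGF1. All IGF1 arrays lay above all vehicle and E2 arrays of their set. Mrc1 rose by 1.21 ± 0.13 with IGF1 (2.32-fold, adjusted p = 1.4e-09) and differed by 0.16 ± 0.13 with E2 (adjusted p = 0.301), and the direct difference was -1.05 ± 0.13 (adjusted p = 2.29e-08). It was not called at 2 h of IGF1 and was 1.27 higher at 24 h than at 2 h.

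Besides Mrc1, 6 macrophage genes rose at 24 h of IGF1. They were C1qb by 0.74 ± 0.17 and C1qa by 0.63 ± 0.19, chains of complement C1q, Fcer1g, the shared signalling chain of Fc receptors, by 0.67 ± 0.12, Cd68, of lysosomes, by 0.60 ± 0.19, Itgam, the integrin CD11b, by 0.58 ± 0.13, and Fcgr1. The third C1q gene, C1qc, lies beside C1qa and C1qb and was not called with either hormone. The mean level of the 15 macrophage genes per wild-type array, relative to the vehicle mean of its set, ran from -0.09 to 0.74 at 24 h of IGF1 with a median of 0.48, and from -0.33 to 0.41 at 24 h of E2 with a median of 0.03. Under vehicle it ran from -0.37 to 0.34, so the ranges overlapped. The E2 difference of C1qa varied between sets: it was -0.41 in C57 mice, 0.00 in Ex3aERKO littermates and 1.04 in ERaUtcKO littermates. Compared with IGF1, E2 left 7 macrophage genes besides Mrc1 at a lower level, among them Tyrobp, an adaptor of myeloid and NK receptors, by 0.69 ± 0.16 (adjusted p = 0.000941), Adgre1 by 0.57 (adjusted p = 0.000296) and Mertk.

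A separate list of 18 further macrophage and monocyte genes gave another balance. With E2, 11 fell and 2 rose, with a median of -0.26, while with IGF1 2 rose and 3 fell. The shares of all genes called were 56.2% and 40.9%. Ms4a7, of tissue macrophages, and Lyve1, which lymphatic vessels also express, fell by 0.94 and 0.93 with E2, and Msr1, a scavenger receptor, rose by 0.54 with E2 and 1.08 with IGF1. Folr2, a folate receptor of resident macrophages, rose by 0.53 with IGF1. The other 13 were not called with IGF1.

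Of the 10 T and NK genes, 8 fell with E2, by 0.20 to 0.73. Of these calls, those of Cd3d, Cd8a, Cd4, Nkg7 and Gzma were lost without the ERaUtcKO littermates. Cd3g, a chain of the T cell receptor complex, read 8.16, 7.99 and 7.49 under vehicle in ERaUtcKO littermates and 6.98, 6.70 and 6.83 at 24 h of E2. In Ex3aERKO littermates it read 6.86 and 7.35 and then 6.91, 7.02 and 6.07, and in C57 mice 7.05, 6.86 and 8.10 and then 6.39, 6.98 and 6.68. The groups stood apart in the ERaUtcKO littermates and overlapped in the other sets. Cd3g fell by 0.73 ± 0.17 (adjusted p = 0.000235), and by 0.61 without the 3 C57 arrays. Cd3d, its neighbour, fell by 0.37 ± 0.15 (adjusted p = 0.0328), a call lost without any 1 of 8 single arrays. Cd3e, which lies next to Cd3d, differed by -0.39 (adjusted p = 0.103).

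Genes of NK and cytotoxic cells fell too. Nkg7, of cytotoxic granules, fell by 0.45 ± 0.13, Ncr1, the NK receptor NKp46, by 0.42 ± 0.09, and Prf1, perforin, by 0.40 ± 0.08 (adjusted p = 0.00264, 0.000214 and 6.9e-05). Gzma, granzyme A, fell by 0.34 ± 0.13, but in C57 mice alone it differed by 0.16, and 4 single arrays each decided its call. Cd4 fell by 0.51 ± 0.20 (adjusted p = 0.0263) and Cd8a by 0.20 ± 0.08 (adjusted p = 0.0304), both near background on most arrays. The Cd8a call was lost without any 1 of 8 single arrays. Cd4 was no longer called without C57 E2 24 h replicate 1 or 3, or without C57 vehicle replicate 3. The last is 1 of the 3 C57 arrays high in lymphocyte genes. With all 3 of those arrays left out Cd4 was called again, at -0.33 (adjusted p = 0.000109).

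IGF1 moved fewer of these genes. At 24 h Prf1 fell by 0.23 ± 0.08 (adjusted p = 0.0219), and Gzmb, granzyme B, rose by 0.58 ± 0.18 (adjusted p = 0.00742). Gzmb read 6.46, 6.26 and 6.28 under vehicle in C57 mice and 7.01, 7.08 and 6.98 at 24 h of IGF1, with no overlap, but 6.54, 6.15 and 5.42 and then 6.19, 6.83 and 6.58 in ERaUtcKO littermates, with overlap. Among 18 further T and NK genes, 13 fell with E2 and none rose, and with IGF1 7 fell and 1 rose, beside 31.7% and 21.6% of all genes lower. Il7r, the receptor for interleukin 7, fell by 1.31 with E2 and 0.89 with IGF1, and Klrd1, the NK receptor CD94, by 0.84 and 0.58. E2 gave lower levels than IGF1 in 3 of the 10 genes: Gzmb by 0.53, Nkg7 by 0.44 and Ncr1 by 0.27.

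The B cell genes split. Cd79a and Cd79b encode the 2 signalling chains of the B cell receptor. With E2, Cd79a fell by 0.31 ± 0.11 (adjusted p = 0.0116) and Cd79b rose by 0.64 ± 0.17 (adjusted p = 0.00161). Cd79b read 6.03, 6.08 and 6.32 under vehicle in ERaUtcKO littermates and 7.43, 7.03 and 7.13 at 24 h of E2. It read 5.97 and 6.04 and then 6.39, 6.96 and 7.52 in Ex3aERKO littermates, and 6.92, 6.99 and 7.93 and then 7.11, 7.32 and 7.16 in C57 mice. The E2 arrays lay above vehicle in the littermate sets, while in C57 mice the groups overlapped and the difference was -0.08. Of 10 further B and plasma cell genes, 6 fell with E2 and 5 with IGF1, and none rose, again beside 31.7% and 21.6% of all genes lower. Among them Cr2, a complement receptor of B cells, fell by 0.78 and Ms4a1, the gene of CD20, by 0.56 with E2.

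Among granulocyte and mast cell genes, S100a8 and S100a9 carried the largest differences and the largest spread. Their proteins form calprotectin, an abundant complex of neutrophils and monocytes. They are neighbours on chromosome 3 with no protein-coding gene between them. The 250 bases before the start of S100a8 (chr3:90668821-90669070, plus strand) and S100a9 (chr3:90695722-90695971, minus strand) are shown because the genes moved together on single arrays. They are from RefSeq, GRCm38.p6, with capitals marking AGGAAGT in S100a8, read on the other strand as ACTTCCT, and TTGCNNAA in S100a9.
S100a8: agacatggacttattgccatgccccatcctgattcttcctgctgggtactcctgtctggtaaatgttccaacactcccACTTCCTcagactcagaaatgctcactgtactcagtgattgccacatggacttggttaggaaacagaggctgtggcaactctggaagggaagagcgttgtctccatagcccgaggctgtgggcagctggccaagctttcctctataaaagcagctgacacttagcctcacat
S100a9: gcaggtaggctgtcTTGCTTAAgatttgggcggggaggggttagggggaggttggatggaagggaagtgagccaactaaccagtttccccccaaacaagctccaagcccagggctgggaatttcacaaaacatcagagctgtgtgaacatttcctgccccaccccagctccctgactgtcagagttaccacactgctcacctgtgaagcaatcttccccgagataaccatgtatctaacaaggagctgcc
AGGAAGT is a core bound by ETS factors such as PU.1, and TTGCNNAA is a core bound by C/EBP factors. The first begins 172 bases before the start of S100a8, and the other 236 bases before that of S100a9. On both strands AGGAAGT stands in 7.69% of the 32851 promoter windows and TTGCNNAA in 9.56%. Among the 29 members with a window, 11 hold AGGAAGT and 3 hold TTGCNNAA.

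In ERaUtcKO littermates S100a8 read 9.04, 5.90 and 6.94 under vehicle, 7.06, 7.71 and 8.08 at 24 h of E2, and 10.92, 10.69 and 10.44 at 24 h of IGF1. In Ex3aERKO littermates it read 5.86 and 6.23 under vehicle, 7.92, 5.68 and 6.30 with E2, and 10.51, 9.63 and 7.64 with IGF1. In C57 mice it read 7.18, 6.75 and 7.20 under vehicle, 6.19, 6.75 and 6.60 with E2, and 7.37, 8.81 and 8.16 with IGF1. The IGF1 arrays lay above vehicle in each set, by little in C57 mice, and the E2 arrays overlapped vehicle in each. S100a8 rose by 2.47 ± 0.64 at 24 h of IGF1 (5.53-fold, adjusted p = 0.00199) and S100a9 by 2.08 ± 0.58 (4.21-fold, adjusted p = 0.00423). With E2 they differed by 0.03 ± 0.64 and -0.24, and E2 lay below IGF1 by 2.43 ± 0.62 (adjusted p = 0.00226) and 2.32 ± 0.57 (adjusted p = 0.00145).

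Both of these wild-type calls at 24 h of IGF1 held without any single array, but were lost without the ERaUtcKO littermates. In other groups single arrays stood out. In Ex3aERKO littermates at 2 h of IGF1, S100a8 read 8.49, 14.26 and 8.28 and S100a9 read 8.14, 14.25 and 7.39. In Ex3aERKO mice at 24 h of IGF1 they read 10.31, 15 and 10.82, and 9.07, 15.02 and 10.16. In each of these groups of 3, 1 array stood far above the other two in both genes. The array highest in S100a8 was also highest in S100a9 in 21 of 25 groups, where the groups hold 2 or 3 arrays. The median SD within a group was 1.19 for S100a8 and 0.92 for S100a9, and among the other 35 members it ran from 0.06 for Epx to 0.49 for Lyz2. Across the 68 arrays S100a8 ran from 5.03 to 15.

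**Figure D4:**
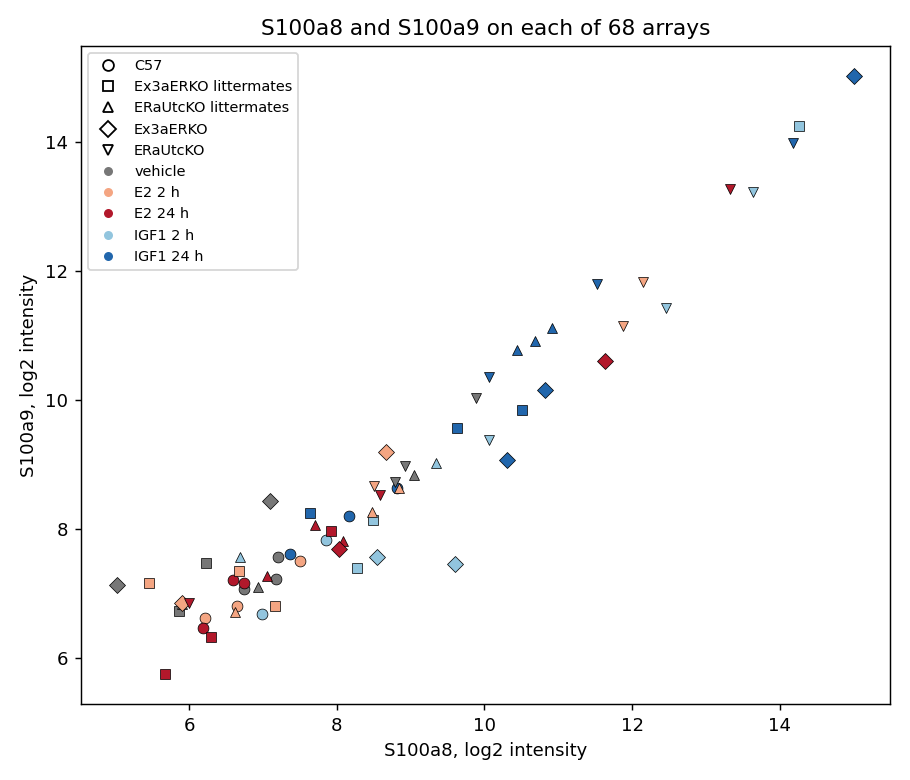
Log2 intensity of S100a8 (x axis) and S100a9 (y axis) on each of the 68 arrays, by treatment (colour) and set of mice (symbol). S100a8 runs from 5.03 to 15 and S100a9 follows it, and single arrays of several groups lie at the top, among them 1 of 3 Ex3aERKO arrays at 24 h of IGF1 (15 and 15.02).

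The other 3 granulocyte and mast cell genes, Cpa3, Siglecf and Epx, were not called at 24 h of IGF1. Cpa3, a protease of mast cells, read 7.97 and 7.89 under vehicle in Ex3aERKO littermates and 7.19, 6.63 and 7.27 at 24 h of E2, but 10.47, 9.96 and 8 and then 9.24, 8.93 and 8.77 in C57 mice. It fell by 0.74 ± 0.30 with E2 (adjusted p = 0.0334), a call lost without any 1 of 8 single arrays. Siglecf, a receptor of eosinophils, fell by 0.17 ± 0.06 with E2 (adjusted p = 0.0162), close to background, and Epx differed by -0.07. The counts of the further lists stand beside 24.5% of all genes higher and 31.7% lower with E2, and 19.3% and 21.6% with IGF1. Of 11 further mast cell genes 5 fell with E2, Cma1 (chymase) by 0.49 and Tpsb2 (tryptase) by 0.37, and with IGF1 1 rose, Hdc, the histamine-forming enzyme, by 1.38. Of 12 further neutrophil genes 1 rose with E2, Ly6g, a surface protein of neutrophils, by 1.28, and 4 fell, among them Mmp9, a gelatinase, by 0.68. With IGF1 1 of these rose, Retnlg, by 0.84. Of 6 further eosinophil genes 1 rose and 3 fell with either hormone, and Alox15, also found in epithelium, rose by 1.37 with E2.

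The Ex3aERKO line was set against its own littermates. Under vehicle none of the 37 genes was called, against 2.96% of all genes, although 11 had an unadjusted p under 0.05 (limma) and the median difference was -0.29 beside 0.02 for all genes. The lowest values were Lyz2 at -2.07 (adjusted p = 0.134), H2-Aa at -1.19 (adjusted p = 0.06) and H2-Eb1 at -1.18 (adjusted p = 0.159). There were 2 vehicle arrays on each side, which read 13.50 and 14.57 against 16.03 and 16.18 for Lyz2, and 7.02 and 8.15 against 8.59 and 8.97 for H2-Aa. The groups did not overlap for either gene, but the 2 Ex3aERKO vehicle arrays lay far apart.

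E2 called none of the 37 genes in Ex3aERKO mice at 24 h, where none of the 30142 genes was called (percent called 0), and 3 members had an unadjusted p under 0.05 (limma). H2-Eb1 read 8.04 and 9.16 under vehicle and 9.18 and 9.07 at 24 h of E2, and Ptprc read 7.73 and 8.39 and then 7.82 and 8.01. Neither fell below the range of vehicle. Of the 37 genes, the test of the difference between Ex3aERKO and littermate responses called 3 higher at 24 h of E2, against 16.8% of all genes, 6.34% higher and 10.5% lower. The response of H2-Eb1 was higher in Ex3aERKO mice by 1.96 ± 0.56 (95% interval 0.79 to 3.12, adjusted p = 0.0204), that of Itgax by 0.77 ± 0.25 (adjusted p = 0.0381) and that of Cd4 by 0.51 ± 0.17 (adjusted p = 0.0411), the last near background. H2-Aa missed the threshold at 1.31 ± 0.45 (adjusted p = 0.0532). With median centring H2-Eb1 alone was called, with quantile normalization H2-Eb1 and H2-Aa, and with the replicate block H2-Eb1 and Cd4, so the count of 3 became 1, 2 and 2. The call of H2-Eb1 was lost without any 1 of 3 single arrays and those of Itgax and Cd4 without any 1 of 7. None of the 3 calls was left without littermate vehicle replicate 3 or without Ex3aERKO E2 24 h replicate 1, 1 was left without Ex3aERKO E2 24 h replicate 3, and 5 genes were called without Ex3aERKO vehicle replicate 3. Cd14 differed by 0.73 from vehicle at 24 h of E2 in Ex3aERKO mice (adjusted p = 0.347), and its response differed from that of littermates by -0.59 (95% interval -1.55 to 0.38).

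At 2 h of E2 the response differed in 2 of the 37 genes between Ex3aERKO mice and littermates, against 9.43% of all genes, 4.58% higher and 4.85% lower. Cd14 read 5.43 and 5.54 under vehicle and 7.46 and 6.76 at 2 h, while in littermates it read 5.93 and 5.59 and then 6.14, 5.75 and 5.21. H2-Aa read 7.02 and 8.15 and then 8.69 and 8.55, while in littermates it read 8.59 and 8.97 and then 7.99, 8.20 and 8.25. Values were above vehicle in the Ex3aERKO arrays for both genes, and the littermate arrays of H2-Aa were below it. The responses differed by 1.68 ± 0.46 for Cd14 (adjusted p = 0.0252) and 1.67 ± 0.45 for H2-Aa (adjusted p = 0.0221), and neither call was left without Ex3aERKO vehicle replicate 2 or E2 2 h replicate 1. That of Cd14 was also lost without littermate vehicle replicate 2, littermate E2 2 h replicate 3 or Ex3aERKO vehicle replicate 3, and that of H2-Aa without littermate vehicle replicate 3, littermate E2 2 h replicate 1 or Ex3aERKO E2 2 h replicate 3. Within Ex3aERKO mice neither gene was called at 2 h of E2, where 0.149% of all genes were.

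IGF1 at 24 h called 4 of the 37 genes in Ex3aERKO mice, 3 higher and 1 lower, against 18.6% of all genes, 11.7% higher and 6.86% lower. Mertk fell by 0.65 ± 0.15 (adjusted p = 0.00485), from 8.02 and 8.03 under vehicle to 7.18, 7.50 and 7.47, without overlap. Cd68 rose by 1.38 ± 0.39 (adjusted p = 0.0174), from 9.23 and 9.63 to 10.41, 11.34 and 10.69, and Fcer1g by 1.20 ± 0.37 (adjusted p = 0.0274). S100a8 rose by 5.98 ± 1.62 (adjusted p = 0.0138), from 5.03 and 7.10 to 10.31, 15 and 10.82. Without IGF1 24 h replicate 2, the array at 15, Mertk alone was called. Without vehicle replicate 2 there were 2 calls, both lower and Mertk among them. Mrc1, the gene that IGF1 raised most clearly among wild-type macrophage genes, read 8.52 and 9.94 under vehicle and 9.42, 9.96 and 9.55 at 24 h of IGF1. Its difference of 0.41 was not called (adjusted p = 0.41), yet the difference from the littermate response, -0.38, had an interval from -1.25 to 0.49. No antigen-presenting gene was among the 4 calls. Their mean level per array, relative to the vehicle mean, averaged -0.34 at 24 h of IGF1 (-0.64 to -0.07). Vehicle arrays ran from -0.45 to 0.45, with overlap, and littermates averaged -0.96 with IGF1 (-1.34 to -0.69). None of the 37 genes was called for a different IGF1 response in Ex3aERKO mice at 2 h or 24 h, where 0% and 0.0133% of all genes were called, with 0 and 1 members at an unadjusted p under 0.05 (limma). No member was called within Ex3aERKO mice at 2 h of IGF1 either, with 2 at an unadjusted p under 0.05, against 15.7% of all genes.

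The ERaUtcKO line was compared in the same way. Under vehicle none of the 37 genes was called against littermates, beside 4.17% of all genes, and 6 had an unadjusted p under 0.05 (limma). Within ERaUtcKO mice none of the 37 genes and none of the 30142 was called at 24 h of E2, and 3 members had an unadjusted p under 0.05 (limma). After 24 h of IGF1, 10 of the 37 genes were called, 6 higher and 4 lower, beside 32.4% of all genes, 16.9% higher and 15.5% lower. The 6 that rose were macrophage genes.

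The E2 response at 24 h differed between ERaUtcKO mice and littermates in 8 of the 37 genes, beside 32.9% of all genes, 17.3% higher and 15.5% lower. In ERaUtcKO mice 5 responses were lower and 3 higher. After median centring, which moved the median of all genes from 0.13 to 0.0084, 5 were lower and 1 higher, Cd3g. Cd14 read 6.60, 6.44 and 6.43 under vehicle and 6.79, 6.23 and 6.79 at 24 h of E2 in ERaUtcKO mice, where littermates read 6.82, 6.27 and 6.98 and then 7.97, 8.24 and 8.04. E2 and vehicle arrays overlapped in the line and not in the littermates. The response differed by -1.28 ± 0.25 (95% interval -1.80 to -0.77, adjusted p = 0.000382).

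Cd79b, C1qa, C1qb and Fcgr1 showed the same arrangement. Cd79b read 6.85, 6.60 and 6.38 under vehicle and 6.17, 6.63 and 6.27 with E2 in ERaUtcKO mice, and its response differed by -1.31 ± 0.23 (adjusted p = 0.000105). C1qa read 6.16, 6.39 and 6.18 and then 5.89, 6.08 and 6.20, where littermates read 5.74, 6.10 and 6.78 and then 7.18, 7.28 and 7.30. Its response differed by -1.23 ± 0.32 (adjusted p = 0.00565), that of C1qb by -0.96 ± 0.27 (adjusted p = 0.00991) and that of Fcgr1 by -1.02 ± 0.29 (adjusted p = 0.00966). The E2 difference of C1qa in these littermates was not shared by the other wild-type sets, as given above.

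H2-Eb1 did not follow the littermates either. It read 9.87, 9.54 and 9.33 under vehicle and 9.55, 9.75 and 9.27 at 24 h of E2 in ERaUtcKO mice, with overlap, and the response was 0.68 ± 0.22 higher than in littermates (adjusted p = 0.0193). Cd3g read 7.55, 7.43 and 7.92 and then 7.48, 7.58 and 7.22, also with overlap, and its response was 0.83 ± 0.25 higher (adjusted p = 0.0125). That of Ncr1 was 0.65 ± 0.22 higher (adjusted p = 0.0239). The call of H2-Eb1 was lost without ERaUtcKO vehicle replicate 3 or E2 24 h replicate 2, and that of Ncr1 without any 1 of 6 single arrays. Among 18 further T and NK genes 8 responses were higher in ERaUtcKO mice and none lower, beside 17.3% and 15.5% of all genes, and among the 9 epithelial genes 6 were lower and 1 higher, with a median of -1.64. In the Ex3aERKO experiment 6 of the 9 epithelial genes were lower too, beside 10.5% of all genes, with a median of -2.05. The part of the epithelial response in these differences was not tested.

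**Figure D5:**
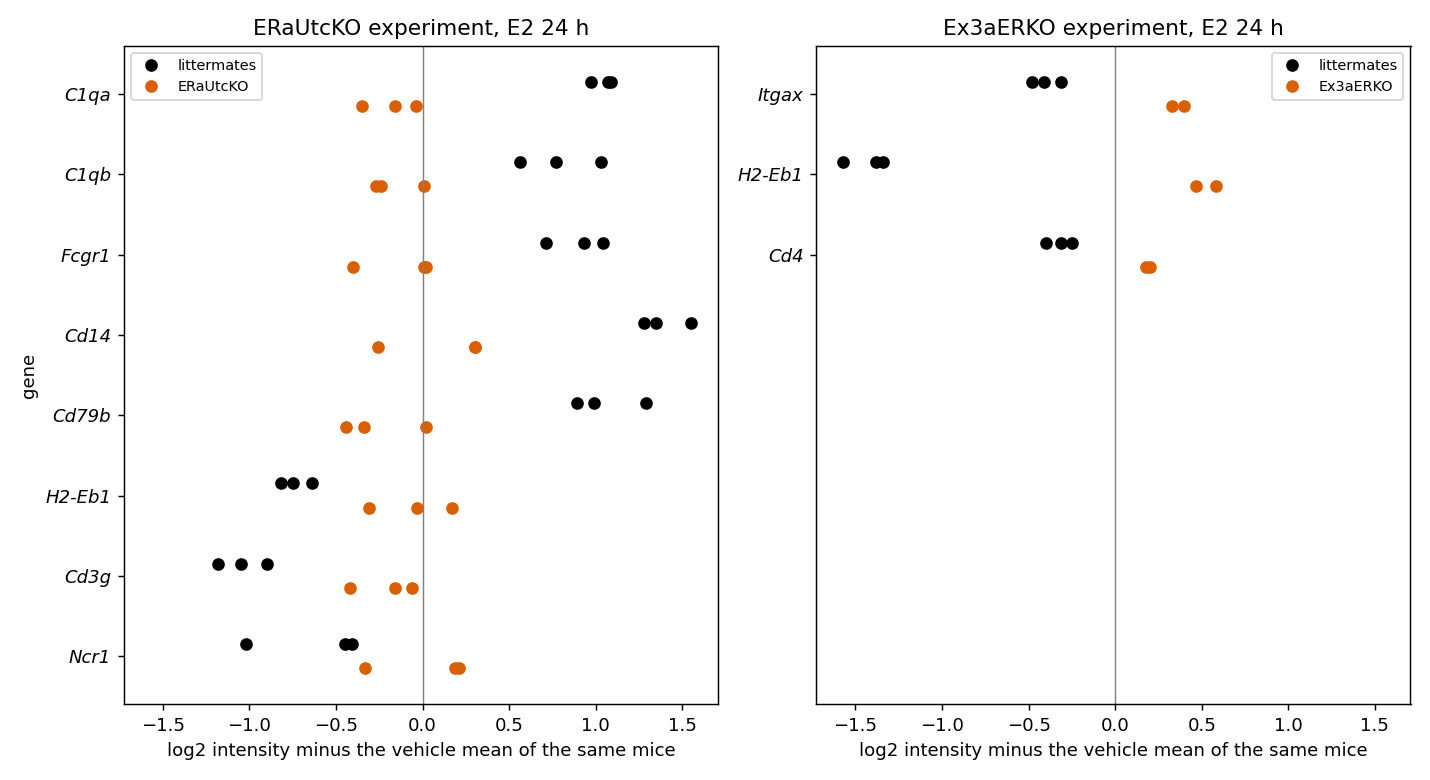
Log2 intensity at 24 h of E2 minus the vehicle mean of the same mice, 1 point per array, for the genes whose E2 response was called different in ERaUtcKO (left) or Ex3aERKO (right) from littermates. Black points are littermates and orange points the knockout line. Cd14 lies well above 0 in the ERaUtcKO littermates and around 0 in ERaUtcKO mice, and H2-Eb1 lies below 0 in littermates of either line.

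Ptprc was not called for a different E2 response in ERaUtcKO mice, where E2 and vehicle arrays overlapped, unlike in littermates. It read 9.30, 8.98 and 8.62 under vehicle and 8.24, 8.77 and 8.28 at 24 h of E2, a difference of -0.53 ± 0.22 (unadjusted p = 0.0214, adjusted p = 1.0 by limma). The response differed from that of littermates by 0.01, with a 95% interval from -0.62 to 0.64. In the Ex3aERKO experiment the response of Ptprc differed by 0.80 ± 0.32 (adjusted p = 0.0976). Mertk likewise was not called for a different E2 response in either line, at 0.38 (-0.09 to 0.84) in Ex3aERKO and 0.32 (-0.08 to 0.73) in ERaUtcKO.

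With IGF1 at 24 h, Mrc1 in ERaUtcKO mice read 10.01, 10.24 and 9.54 under vehicle and 11.89, 11.97 and 11.15 with the hormone, without overlap. It rose by 1.74 ± 0.27 (3.34-fold, adjusted p = 2.21e-05). C1qa rose by 0.83 ± 0.23, Fcer1g by 0.83, Fcgr1 by 0.79, C1qb by 0.75 and Cd163, the haemoglobin scavenger receptor, by 0.57. H2-Ab1 read 10.58, 10.48 and 10.18 under vehicle and 9.84, 9.45 and 9.61 with IGF1, without overlap, and fell by 0.78 ± 0.17 (adjusted p = 0.000736). H2-Aa fell by 0.72 ± 0.19 (adjusted p = 0.0056), H2-Eb1 by 0.67 ± 0.15 (adjusted p = 0.0014) and Cd3g by 0.56 ± 0.17 (adjusted p = 0.0161). Of the 10 calls 6 held without any single array, and those of Cd163, Cd3g, Fcer1g and Fcgr1 did not.

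None of the 37 genes was called for a different IGF1 response in ERaUtcKO mice, beside 0.511% of all genes at 2 h and 0.0498% at 24 h, with 4 members and 1 member at an unadjusted p under 0.05 (limma). At 24 h the responses of ERaUtcKO mice and littermates differed by 0.26 for Mrc1 (95% interval -0.53 to 1.04), 0.41 for H2-Ab1 (-0.07 to 0.90), 0.42 for H2-Eb1 (-0.02 to 0.87) and -0.13 for H2-Aa (-0.69 to 0.44). Intervals of this width do not show that the responses were alike.

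Early responses in ERaUtcKO mice rested on few arrays. After 2 h of E2, 2 of the 37 genes rose, beside 0.491% of all genes, 0.398% higher and 0.0929% lower: H2-Eb1 by 0.76 ± 0.15 (adjusted p = 0.0202) and Mertk by 0.71 ± 0.14 (adjusted p = 0.016). H2-Eb1 read 10.49, 10.45 and 10.07 there and Mertk 9.29, 9.28 and 8.89, all above the 3 vehicle arrays. On the same 3 arrays the mean level of the 6 fat genes ran from 1.24 to 2.60, against -1.03 to 1.09 under vehicle, and its part in the result was not tested. Neither call was left without vehicle replicate 3 or without E2 2 h replicate 1 or 2, and 1 was left without vehicle replicate 1 or 2. No member was called for a different E2 response from littermates at 2 h, beside 13.8% of all genes, with 3 at an unadjusted p under 0.05 (limma). After 2 h of IGF1, 4 genes rose, beside 29.3% of all genes, 13.1% higher and 16.2% lower: Mrc1 by 0.84, Ptprc by 0.67, Csf1r by 0.65 and Cd163 by 0.52. None was left without vehicle replicate 3 or without IGF1 2 h replicate 3, where Ptprc read 10.29 against 9.20 and 9.41, and 8 and 7 genes were called without IGF1 2 h replicate 1 or 2.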

How the data were processed

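Total RNA, 300 ng per sample, was amplified and labelled with the Affymetrix WT Plus kit, per the labels' protocols. The deposited table holds log2 intensities of 72688 probe sets, and the sources used here do not name the authors' normalization. No further scaling was applied. Probe sets with 1 gene symbol were kept, and for 355 genes with several the one with the highest mean over 68 arrays, which left 30142 genes. No filter on level was applied. Symbols were updated through Entrez identifiers, which gave Siglecf.

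The package limma 3.58.1 (lmFit, eBayes; R 4.3.3) fitted models over 42 wild-type arrays with treatment and set, and over the 25 and 29 arrays of the Ex3aERKO and ERaUtcKO experiments with a mean per group. The p-values were adjusted by Benjamini-Hochberg over all genes, two-sided. The fits were tested on simulated data. Alternatives were median centring, quantile normalization, a background filter, the mean of probe sets, a replicate block, single sets and leaving out each array. The number of arrays limits the precision.

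Any of the 37 genes could be named. From the further lists up to 2 called rises and 2 called falls per wild-type comparison were named. The members, lists and tests were chosen with earlier results of these data known.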

Additional observations from a re-analysis of the deposited data

Results flagged for a closer look

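In 13 cases the response to E2 differed between a knockout line and its littermates by the test of the difference itself (limma, adjusted p under 0.05). At 2 h in the Ex3aERKO experiment these were Cd14 (1.68 on the log2 scale, knockout minus littermate response) and H2-Aa (1.67). At 24 h they were H2-Eb1 (1.96), Itgax (0.77) and Cd4 (0.51). At 24 h in the ERaUtcKO experiment the response was lower in the knockout line for Cd79b (-1.31), Cd14 (-1.28), C1qa (-1.23), Fcgr1 (-1.02) and C1qb (-0.96), and higher for Cd3g (0.83), H2-Eb1 (0.68) and Ncr1 (0.65). Cd14 was the gene whose E2 response differed at 2 h in one line, upward, and at 24 h in the other, downward. No difference between the lines was tested.

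In 7 cases wild-type sets stood apart from vehicle in opposite directions. Every treated array of one set lay above all its vehicle arrays, and every one of another lay below all of its own. The difference between the sets was not tested. Ex3aERKO and ERaUtcKO littermates differed in sign at 2 h of E2 for H2-Aa (-0.63 and 0.63), H2-Ab1 (-0.51 and 0.26) and H2-Eb1 (-0.66 and 0.18). With IGF1 at 2 h, Mertk differed by -0.22 in C57 mice and 0.62 in ERaUtcKO littermates. Cd8a differed by -0.21 in C57 mice and 0.10 in Ex3aERKO littermates. Prf1 differed by 0.10 in C57 mice, -0.14 in Ex3aERKO littermates and -0.23 in ERaUtcKO littermates. Cd8a and Prf1 were near background on most arrays.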

How the results depend on the processing

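No called difference changed sign under median centring, quantile normalization, the background filter, the mean of probe sets or the replicate block. Counts of called members in wild types changed by over 1.5 times as follows. After 2 h of E2 the count of 0 became 2 with centring, 1 with quantile normalization and 4 in ERaUtcKO littermates alone. After 24 h of E2 23 became 14 without the ERaUtcKO littermates, 8 in C57 alone and 10 in Ex3aERKO littermates alone. After 2 h of IGF1 2 became 1, 0 and 0 in the same order, and at 24 h of IGF1 17 became 9, 7 and 5. For E2 against IGF1 at 2 h 1 became 0 with centring, with quantile normalization and without the 3 C57 arrays high in lymphocyte genes. That count was also 0 in C57 alone and in Ex3aERKO littermates alone, 2 without the ERaUtcKO littermates and 4 in those alone. At 24 h 17 became 6 in C57 alone, 6 in Ex3aERKO littermates alone and 9 in ERaUtcKO littermates alone. For 24 h against 2 h of E2 19 became 12, 6 and 12 without the ERaUtcKO littermates, in C57 alone and in Ex3aERKO littermates alone, and for IGF1 12 became 7, 4 and 5. Single sets and reduced sets hold fewer arrays. In the knockout experiments counts of 0 became 1 for Ex3aERKO under vehicle and at 2 h of IGF1 with quantile normalization and with the background filter, for Ex3aERKO at 2 h of E2 with that filter, and for the ERaUtcKO interaction at 2 h of E2 with quantile normalization. The Ex3aERKO interaction at 24 h of E2 went from 3 to 1 with centring and to 2 with quantile normalization. The cause was not tested.

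Among the alternatives run, differences called in either fit changed sign in single sets only. In C57 alone these were Cd79b at 24 h of E2 (-0.08), Gzma at 24 h of E2 (0.16) and of IGF1 (0.31), and for 24 h against 2 h of E2 Cd3d (0.03), Cd68 (-0.01) and Cd8a (0.10). In Ex3aERKO littermates alone they were Fcgr1 at 24 h of IGF1 (-0.02) and Ncr1 for E2 against IGF1 at 24 h (0.01). In ERaUtcKO littermates alone they were H2-Aa at 2 h of E2 (0.63) and Lyz2 at 24 h of E2 (0.12) and of IGF1 (0.61). Over the 42 arrays Gzma and Lyz2 were not called at 24 h of IGF1, nor H2-Aa at 2 h of E2, and the other 8 were.

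Leaving out each array in turn gave these ranges of called members. In wild types they were 0 to 2 at 2 h of E2, 19 to 23 at 24 h of E2, 0 to 3 at 2 h of IGF1 and 15 to 19 at 24 h of IGF1. For E2 against IGF1 they were 0 to 2 at 2 h and 16 to 19 at 24 h, and for 24 h against 2 h 16 to 19 with E2 and 10 to 14 with IGF1. In Ex3aERKO mice they were 0 to 1 under vehicle, 0 to 1 and 0 to 0 at 2 h and 24 h of E2, and 0 to 2 and 1 to 5 at 2 h and 24 h of IGF1. The Ex3aERKO interactions gave 0 to 3 and 0 to 5 with E2, and 0 with IGF1. In ERaUtcKO mice they were 0 under vehicle, 0 to 3 and 0 at 2 h and 24 h of E2, and 0 to 8 and 8 to 10 with IGF1. The ERaUtcKO interactions gave 0 to 2 and 6 to 10 with E2, and 0 with IGF1. Without any single array 17 of the 23 calls at 24 h of E2 were kept, 15 of the 17 at 24 h of IGF1 and 15 of the 17 between the hormones.

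Deviations of arrays with the same replicate number had a median correlation of -0.006 in wild types, -0.003 in the Ex3aERKO and -0.004 in the ERaUtcKO experiment. Single pairs ran from -0.591 to 0.498, from -0.285 to 0.41 and from -0.328 to 0.223 in the same order. Above 0.1 were 12 of 78, 8 of 92 and 16 of 126 pairs. The medians do not show that no arrays were paired. With the replicate block 23 members were called at 24 h of E2 and 16 at 24 h of IGF1 in wild types, 10 at 24 h of IGF1 in ERaUtcKO mice and 2 for the Ex3aERKO interaction at 24 h of E2.

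Groups of 2 or 3 arrays limit what the knockout comparisons can show, and genes near background, such as Cd4, Cd8a, Gzmb, Prf1, Siglecf and Epx, can show little change on this scale. The authors' removal of outlier arrays, the unknown IGF1 route and the missing 2 h vehicle hold for every comparison.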

Other observations

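Growth factors and attractants of white blood cells form a list of 22 genes that are not markers of the cells themselves. At 2 h of E2 in wild types 4 rose and 7 fell (limma, adjusted p under 0.05), beside 40.0% of all genes called. Ccl2 and Ccl7, attractants of monocytes, rose by 1.17 each, Il15, a growth factor of NK cells, fell by 1.59 and Kitl, the growth factor of mast cells, by 1.25. With IGF1 at 2 h 5 rose and 5 fell, beside 35.9% of all genes called. Ccl2 rose by 2.10 and Ccl7 by 1.67, while Il15 fell by 0.89 and Flt3l, a growth factor of dendritic cells, by 0.74.

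Later, at 24 h of E2, 6 of the 22 rose and 8 fell, beside 24.5% of all genes higher and 31.7% lower. Ccl11, an attractant of eosinophils, rose by 2.28 and Ccl7 by 1.42, while Cxcl12 fell by 1.25 and Cxcl9, an attractant of T cells, by 1.22. With IGF1 at 24 h 5 rose and 4 fell, beside 40.9% of all genes called. Ccl8 rose by 1.97 and Ccl7 by 1.08, while Flt3l fell by 0.66 and Ccl5 by 0.62. None of the 22 was called at 24 h of E2 in Ex3aERKO or ERaUtcKO mice (limma), where no gene at all was called.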
